A study of Homo sapiens with 6 samples.

Results

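The 10 genes described here encode factors that translate the messages of mitochondrial DNA or process its RNA: MTIF2, MTIF3, TUFM, TSFM, GFM1, GFM2, PRORP, TRMT10C, HSD17B10 and LRPPRC. They are all encoded in the nucleus. Each was examined for peaks of GABPA, the DNA-contacting subunit of the transcription factor GABP, whose summit (the base of highest read pileup) lay within 1 kb of either end of the gene's RefSeq span. They are 10 of 19970 protein-coding genes, counted on the autosomes and chromosome X. Peaks had been called by ChIP-seq in A-375, a human melanoma cell line, in 3 libraries. The parental library comes from cells with no knockout. The ROSA26 library comes from a line labelled No1 with a knockout at ROSA26, a locus used as a neutral target. The B1 knockout library comes from a line whose GABP B1 subunit gene was knocked out at exon 2 and which also carries a TERT knock-in, called a rescue in the title. Per the labels' protocols, edited lines grew from sorted clonal cells, so each stands for 1 clone. There was 1 ChIP library per condition and no replicate, so no test between conditions was possible and every difference below describes these libraries. The B1 knockout, the TERT knock-in and the clone cannot be told apart.

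Mitochondrial DNA encodes a small set of respiratory chain proteins, together with the ribosomal and transfer RNAs needed to make them, and all other parts of this machinery are imported. Long transcripts are cut at their transfer RNAs by RNase P at the 5′ side and by ELAC2 at the 3′ side. A ribosome of the mitochondrion's own then starts with the initiation factors MTIF2 and MTIF3, elongates with TUFM, TSFM and GFM1, and is split for reuse by GFM2 together with the recycling factor MRRF. GABP, known also as nuclear respiratory factor 2, binds DNA elements with the core GGAA and is known for nuclear genes of mitochondrial function. A heterotetramer of GABP can contact a pair of such elements.

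The promoter stretches below are shown for the hexamer CGGAAG, the core of an ETS element such as GABPA binds, of which the 4 members with the highest parental folds held 2 copies each and every other member 1 or none. They are RefSeq sequence of GRCh38.p14 on the gene's own strand, 5′ to 3′. Capitals mark CGGAAG, or its reverse complement CTTCCG, which counts as the same hexamer. Except for MTIF2 and PRORP, each stretch ends at the base before the annotated start. The second MTIF2 stretch lies inside the gene's span.
TUFM, chr16:28846349-28846438, minus strand: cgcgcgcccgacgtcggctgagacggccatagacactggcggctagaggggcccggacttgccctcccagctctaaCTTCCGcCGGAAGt
GFM2, chr5:74767118-74767207, minus strand: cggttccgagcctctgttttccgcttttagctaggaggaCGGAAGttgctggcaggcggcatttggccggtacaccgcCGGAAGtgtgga
TRMT10C, chr3:101561778-101561867, plus strand: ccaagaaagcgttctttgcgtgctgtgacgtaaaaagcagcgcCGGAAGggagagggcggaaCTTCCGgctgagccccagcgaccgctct
MTIF2, chr2:55269249-55269309, minus strand: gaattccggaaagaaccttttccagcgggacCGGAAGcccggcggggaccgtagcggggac
MTIF2, chr2:55269212-55269239, minus strand: taccgaccattCTTCCGggtccagaagg
GFM1, chr3:158644437-158644526, plus strand: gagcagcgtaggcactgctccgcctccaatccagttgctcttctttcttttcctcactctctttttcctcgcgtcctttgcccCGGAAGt
HSD17B10, chrX:53434377-53434466, minus strand: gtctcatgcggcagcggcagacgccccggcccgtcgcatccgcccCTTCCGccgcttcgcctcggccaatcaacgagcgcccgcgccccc
TSFM, chr12:57782697-57782786, plus strand: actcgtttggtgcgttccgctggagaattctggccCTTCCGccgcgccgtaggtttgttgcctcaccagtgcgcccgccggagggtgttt
PRORP, chr14:35122437-35122466, plus strand, around the parental summit: ccactaaatgcttcaaaactgccttttttc

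Of the 10 genes, 6 had a GABPA peak in the parental library, 7 in the ROSA26 library and 5 in the B1 knockout library. Among all protein-coding genes the shares were 15.5%, 18.5% and 9.31%. The members' shares of 60% (exact Clopper-Pearson 95% interval 26.2 to 87.8), 70% (34.8 to 93.3) and 50% (18.7 to 81.3) rest on 10 genes. The intervals treat the genes as random independent draws, though the list was chosen with earlier results of these data known. They cover no spread between libraries. TUFM, MTIF2, GFM2, TRMT10C and GFM1 were marked in all 3 libraries, as were 9.26% of all genes. PRORP was marked in both controls but not in the B1 knockout library, and HSD17B10 in the ROSA26 library alone. MTIF3, TSFM and LRPPRC were listed in none. The controls shared 6 members, against 15.3% of all genes. Of these 6, the knockout library marked 5, against 60.4% of the 3062 control-shared genes overall. Absence from a list means only that no peak passed the caller's threshold, not that GABPA was absent.

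**Figure D1:**
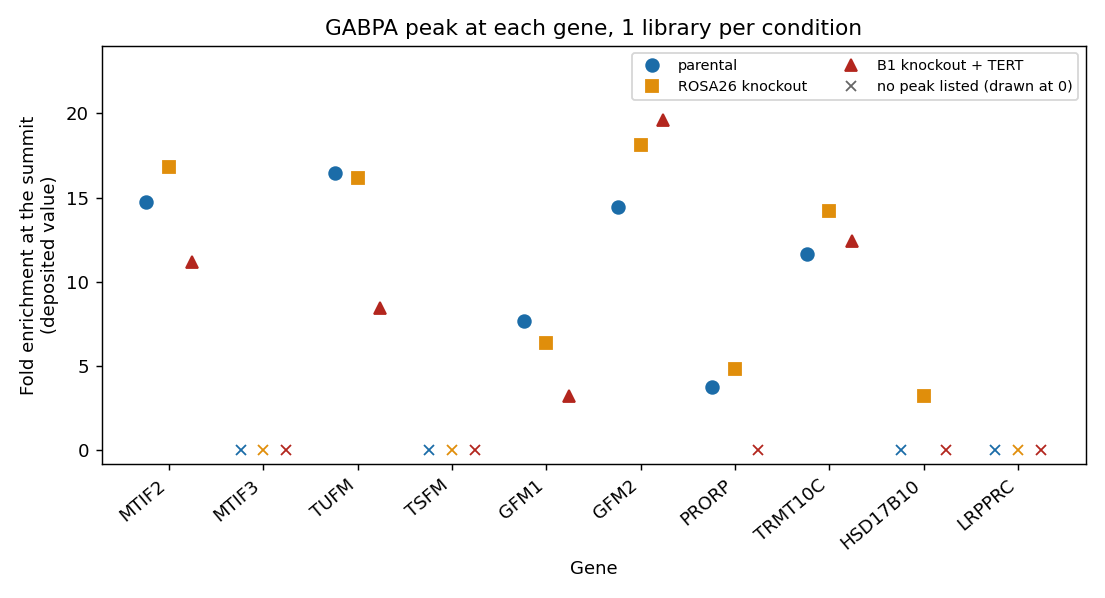
Fold enrichment at the summit (vertical axis, the authors' value) for each of the 10 genes (horizontal axis) in the parental (circles), ROSA26 knockout (squares) and B1 knockout with TERT (triangles) libraries; crosses at 0 mark genes with no listed peak. The folds of MTIF2, TUFM, GFM2 and TRMT10C ran from 8.44 to 19.6, those of PRORP and HSD17B10 from 3.24 to 4.83.

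The lists differed in length and in the reads at their summits, and they give no sequencing depth. The lists hold 3024, 3857 and 1660 peaks (parental, ROSA26, B1 knockout). The number of reads at each summit, solved from the deposited fold and −log10 p, had a median of 132, 122 and 82. The commonest local background against which a fold was taken was 15.4, 14.2 and 9.86 reads. Folds are therefore read within a list, and a gene is placed across lists by its rank among the 1850 genes marked in all 3. Between the controls, these genes differed in rank by a median of 168 places, and between the knockout and the parental or ROSA26 library by 244.5 and 247.

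Translation initiation had 1 marked and 1 unmarked factor. MTIF2 (chromosome 2, 55236595 to 55269248), a GTPase that brings the initiator transfer RNA to the ribosome, had a fold of 14.7 in the parental library, 16.8 in ROSA26 and 11.1 in the knockout. Its summits held 358 reads (95% Poisson interval 322 to 397), 372 (335 to 412) and 192 (166 to 221). It stood high in each list, at ranks 155, 169 and 224 of the 1850 common genes, and its summits lay within 5 bp of each other, 12 to 17 bp outside the span. MTIF3 (chromosome 13, 27435643 to 27450564), which works beside MTIF2 in the selection of the start codon, had no peak in any library. The nearest listed summit to MTIF3 was 184 kb away in both controls, at RPL21.

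The elongation factors fell into 3 different patterns. TUFM (chromosome 16, 28842411 to 28846348), the mitochondrial EF-Tu that delivers aminoacyl transfer RNA, had the highest parental fold of the 10 genes. Its folds were 16.5, 16.2 and 8.44, at ranks 92, 199 and 484 of the common genes. The summits held 290 (258 to 325), 321 (287 to 358) and 136 (114 to 161) reads. By fold, TUFM thus stood lower among common genes in the knockout than in either control. Of the 1850 genes, 15.5% fell at least as far from parental to knockout and 22.2% from ROSA26 to knockout.

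TSFM (chromosome 12, 57782787 to 57802856) encodes EF-Ts, the exchange factor that recharges TUFM with GTP, and had no peak in any library. The nearest summits were 17.9 kb away in both controls, with folds of 3.66 and 2.68, and 133 kb away in the knockout. The pair of proteins that work as 1 cycle thus comprised 1 gene marked in 3 libraries and 1 marked in none. GFM1 (chromosome 3, 158644527 to 158695581), the translocase that moves the ribosome along the message, was marked in all 3 libraries. Its folds were 7.70, 6.35 and 3.24, against list medians of 6.36, 6.02 and 5.81. Among the common genes it stood low, at ranks 1291, 1715 and 1785, and in the knockout list at rank 1577 of 1660.

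GFM2 (chromosome 5, 74721206 to 74767117), the GTPase that splits ribosomes after termination, had folds of 14.4, 18.1 and 19.6. It ranked 180, 100 and 13 among the common genes and 11 among all 1660 knockout peaks. With 418 (379 to 460), 466 (425 to 510) and 296 (263 to 332) reads it had the most reads at its summit of the members in each library. Upward shifts of rank at least as large were seen in 33.1% of common genes from parental and 41.4% from ROSA26 to knockout. A rank near the top of the list leaves little room to rise.

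Mitochondrial RNase P is a protein-only enzyme of 3 subunits, and each had a different pattern. TRMT10C (chromosome 3, 101561868 to 101566446), the methyltransferase subunit that binds the transfer RNA, was marked in all 3 libraries with folds of 11.6, 14.2 and 12.4. Its ranks among common genes were 503, 396 and 138, and its summits held 256 (226 to 289), 215 (187 to 246) and 161 (137 to 188) reads. PRORP (chromosome 14, 35121839 to 35277622), the nuclease subunit, had weak peaks in both controls, with folds of 3.75 and 4.83 and 61 (46.7 to 78.4) and 79 (62.5 to 98.5) reads. These are ranks 2488 of 3024 and 2355 of 3857. PRORP had no peak in the knockout list.

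HSD17B10 (chromosome X, 53431258 to 53434376), the dehydrogenase that joins TRMT10C in RNase P and also acts in isoleucine breakdown, had 1 weak peak in the ROSA26 library. The fold was 3.24 with 51 reads (38.0 to 67.1), at rank 3236 of 3857. Its −log10 q of 9.78 put it below a threshold of 10. Of all protein-coding genes, 3.12% were marked in the ROSA26 list alone. At the RNase P genes the peak present in 3 libraries was the strongest, the peak present in both controls was weaker, and the peak in 1 control was the weakest of the ROSA26 folds. Weak peaks lie nearest a caller's threshold, so such an order is partly built into the lists and is not read as a trait of RNase P.

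LRPPRC (chromosome 2, 43886224 to 43996265) encodes the protein that protects mitochondrial messages together with its partner SLIRP. It had no peak in any library, and the nearest listed summit was 290 kb away in both controls, at THADA. SLIRP was marked in all 3 libraries with folds of 7.86, 9.78 and 6.41. That peak lay near ends of both SLIRP and ALKBH1.

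Part of the fold differences went with the local background. At GFM1 the background solved from the deposited values was 18.1, 16.5 and 22.7 reads, or 1.17, 1.16 and 2.31 times the commonest background of its library. At TUFM it was 1.07, 1.33 and 1.54 times that value. For both genes this ratio was highest in the knockout, where their folds ranked lowest. At GFM1, however, most of the fall in rank lay between the controls, where the background ratio hardly differed. It fell 424 places from parental to ROSA26, with 8.32% of common genes as far. From ROSA26 to knockout it fell 70 places, with 41.7% as far. The reads at the summit, divided by the median over the common genes (199, 228 and 85 reads), gave another order. TUFM had 1.46 (1.29 to 1.64), 1.41 (1.26 to 1.57) and 1.60 (1.34 to 1.89) times the median, so its intervals overlap. GFM1 had 0.739 (0.624 to 0.868), 0.482 (0.397 to 0.581) and 0.894 (0.704 to 1.12) times the median. The lower knockout placing of both genes by fold was therefore not seen in the summit reads, which include the local background. Divided by that background, the reads were 8.13, 6.67 and 3.34 at GFM1 and 17.6, 17.0 and 8.98 at TUFM. Like fold, this ratio also depends on the library.

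GFM2 and TRMT10C were placed higher in the knockout by both measures. By rank of fold, TRMT10C rose 365 places from parental and 258 from ROSA26. At least as large a rise was seen in 16.2% and 24.2% of common genes, so by rank these shifts were not unusual. GFM2 summits held 2.10 (1.90 to 2.31), 2.04 (1.86 to 2.24) and 3.48 (3.10 to 3.90) times the median of the common genes. From parental to knockout this is a ratio of 1.66, and 2.92% of common genes rose at least as far. From ROSA26 to knockout the ratio was 1.70, with 3.78% of genes as far. TRMT10C had 1.29 (1.13 to 1.45), 0.943 (0.821 to 1.08) and 1.89 (1.61 to 2.21) times the median. Its ratio was 1.47 from parental, with 10.2% of genes as far, and 2.01 from ROSA26, with 0.865% as far. Most of the other pathway genes named below as strongest of their role in all 3 lists rose too. From parental to knockout, TACO1 went from 1.45 to 2.13 times the median, ELAC2 from 1.49 to 2.12 and TRMU from 1.42 to 1.89. MTERF4 went from 1.32 to 2.04 and SLIRP from 0.648 to 0.812, while MTRF1L fell from 0.910 to 0.835. The controls themselves differed at TRMT10C and GFM1. The ROSA26 value was 0.733 of the parental one at TRMT10C, with 3.08% of common genes as far, and 0.653 at GFM1, with 0.973% as far. From ROSA26 to knockout GFM1 had a ratio of 1.85, with 1.51% of genes as far, and from parental to knockout 1.21, with 34.1% as far. TUFM had knockout ratios of 1.10 from parental and 1.14 from ROSA26, which 48.3% and 42.4% of genes matched. MTIF2, whose rank by fold was lower in the knockout, stood at 1.80, 1.63 and 2.26 times the median by reads, shifts which 28.0% and 19.6% of common genes matched from the parental and ROSA26 libraries. The intervals are Poisson and cover counting error only, and there is no replicate to give the spread between libraries of 1 condition.

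**Figure D2:**
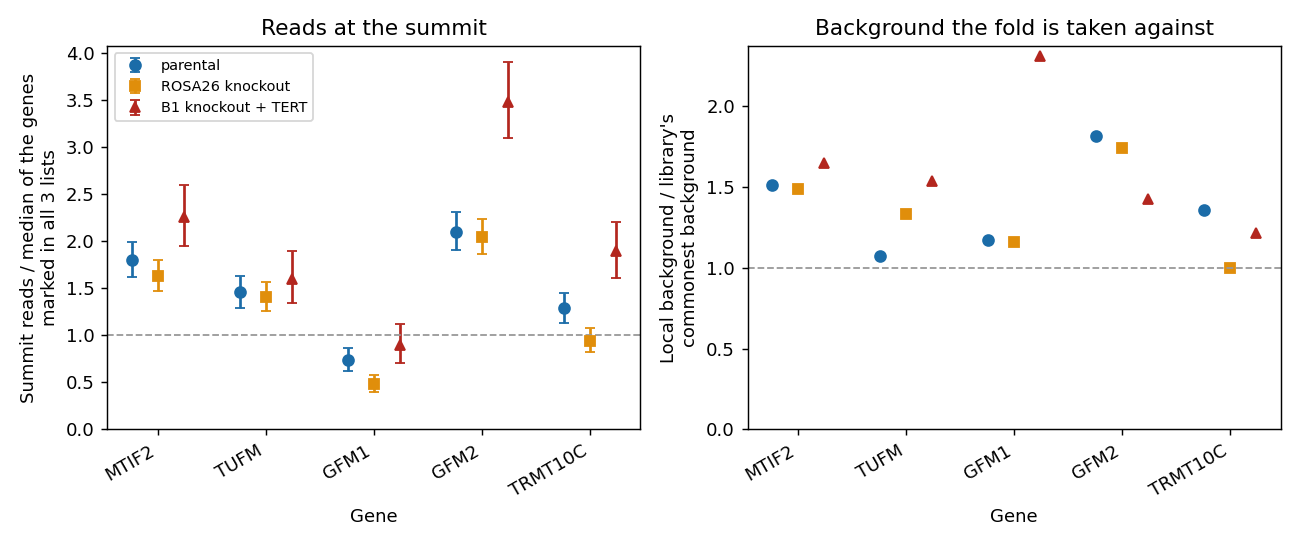
Left, reads at the summit divided by the library's median over the 1850 genes marked in all 3 lists, with 95% Poisson intervals; right, local background divided by the library's commonest background. Horizontal axes give the 5 genes marked in all 3 libraries (circles parental, squares ROSA26 knockout, triangles B1 knockout with TERT); GFM2 reached 3.48 times the median in the knockout, and the GFM1 background 2.31 times the commonest one.

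The summits lay close to the annotated starts. For the 6 genes marked in more than 1 library, PRORP in both controls and the others in all 3, the summits of a gene differed by at most 27 bp between libraries. In TUFM the parental summit lay 18 bp upstream of the start, and the ROSA26 and knockout summits 9 and 6 bp downstream. GFM1 summits lay 17, 37 and 20 bp downstream, those of GFM2 72, 48 and 54 bp upstream, and those of TRMT10C 37, 44 and 38 bp upstream. The MTIF2 summits lay 86, 81 and 81 bp upstream of the start its window is built on, which is inside the span. The HSD17B10 summit lay 63 bp upstream of the outer of its annotated starts. PRORP was the exception by the span, with summits 614 and 620 bp inside it. RefSeq gives PRORP an inner start at 35122552 besides the outer one at 35121839, and the summits lay 99 and 93 bp upstream of the inner start. The 1 kb limit fell in a gap, since these were the farthest summits counted and the next beyond the limit was 4.33 kb from an end, at MTIF2 in the knockout library.

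Peaks at 3 members were shared with a neighbouring gene and cannot be assigned to 1 of them. The TUFM summits lay 240 to 267 bp from an end of SH2B1, a signalling adaptor. Those of GFM2 lay 60 to 84 bp from an end of NSA2, a ribosome biogenesis factor, so the parental summit was nearer to NSA2 than to GFM2 (72 bp). The PRORP summits lay 155 and 161 bp from an end of PPP2R3C, a regulatory subunit of protein phosphatase 2A, which was nearer than the PRORP end. With each summit given to its nearest gene end only, PRORP lost its peaks and GFM2 its parental one, leaving 4, 6 and 5 marked members, while 12.3%, 14.8% and 7.22% of all genes were then marked.

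The number of CGGAAG hexamers went with the strength of the peaks in most members. The search covered RefSeq promoter windows from 250 bases before to 50 bases after each start, on both strands. Windows were found for all 10 members and for 15811 of the 19970 genes. TUFM, GFM2, TRMT10C and MTIF2, the 4 members with the highest parental folds, each held 2 copies. Of 22131 windows, 23.7% held 1 or more copies and 6.42% held 2 or more. Per gene, where a gene with several windows counts by its richest, the shares were 29.7% and 8.41%. GFM1, HSD17B10, TSFM and LRPPRC held 1 copy each. PRORP, in both of its windows, and MTIF3 held none.

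Within the promoters shown above, the pairs differed in spacing and orientation. The TUFM hexamers, in opposite orientation, had centres 7 bp apart with 1 base between them, the closest pair of the 4. Those of TRMT10C, in opposite orientation, were 19 bp apart, those of GFM2, in the same orientation, 39 bp, and those of MTIF2, in opposite orientation, 50 bp. The GFM2 hexamer farther from the start had its centre 0.5 bp from the ROSA26 summit, 5.5 bp from the knockout summit and 23.5 bp from the parental one. The other GFM2 copy lay 62.5, 38.5 and 44.5 bp from the parental, ROSA26 and knockout summits. In the same order of libraries, the upstream TRMT10C hexamer lay 7.5, 0.5 and 6.5 bp from the summits and the downstream one 11.5, 18.5 and 12.5 bp. The upstream MTIF2 hexamer lay 10.5, 15.5 and 15.5 bp away and the downstream one 39.5, 34.5 and 34.5 bp. At TUFM the upstream copy lay 6.5, 20.5 and 17.5 bp from the summits and the downstream one 13.5, 13.5 and 10.5 bp. At GFM1 the copy just before the start was 21.5, 41.5 and 24.5 bp from the summits, and at HSD17B10 it was 20.5 bp from the ROSA26 summit. The octamer CCGGAAGT, which holds the hexamer and is found in 5.34% of windows and 6.98% of genes, occurred in TUFM, GFM2, TRMT10C and GFM1, and so in 4 of the 5 genes marked in all 3 libraries and in no other member.

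**Figure D3:**
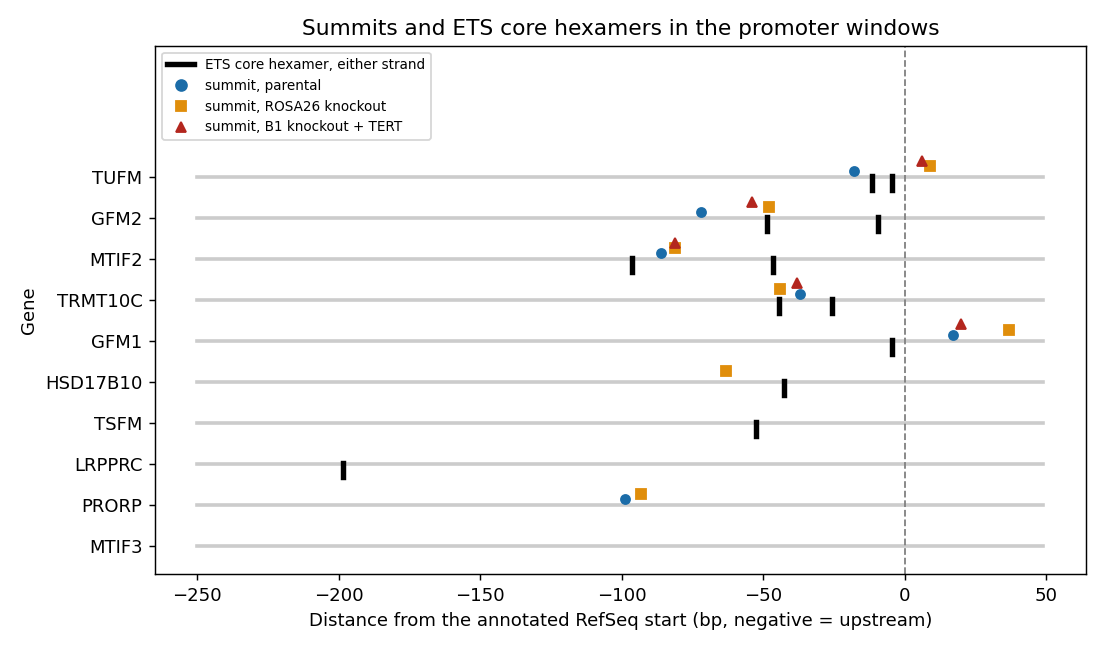
Position of the summits (symbols by library) and of the ETS core hexamer on either strand (black bars) relative to the annotated RefSeq start of each gene, in bp; grey lines are the searched windows, the PRORP row uses the inner start and the HSD17B10 row the outer one. The 4 upper rows hold 2 hexamers each, with summits of all 3 libraries. The hexamer of LRPPRC lies 201 to 196 bp upstream of a start inside the gene's span, with no summit.

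A hexamer did not go with a peak in every case. TSFM held 1 copy 55 to 50 bp upstream of its start, at a distance like that of HSD17B10 (45 to 40 bp), and had no peak. LRPPRC held 1 copy, at 43996185 to 43996190, 201 to 196 bp upstream of the start its window is built on. That start, at 43995989, lies inside the span, and so does the copy. The window stops at 43996239, short of the span's end at 43996265, so the stretch around that end was not searched. PRORP had peaks in both controls with no CGGAAG in either window, and the 30 bases around its parental summit hold no GGAAG either. The shorter GGAAG is common, being present in 73.7% of windows and 79.0% of genes, and in all 10 members.

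Over all genes with a promoter window, marking rose with the number of hexamers. In the parental library 6.27% of genes with none were marked (697 of 11118), 29.7% of those with 1 (998 of 3364) and 71.9% of those with 2 or more (955 of 1329). The ROSA26 shares were 8.27%, 35.7% and 76.9%, and the knockout shares 2.88%, 17.1% and 53.7%. Among control-shared genes, the share with a knockout peak was 46.4% (42.6 to 50.2) with none, 57.5% (54.4 to 60.6) with 1 and 75.1% (72.2 to 77.8) with 2 or more. The members followed the same order, with 4 of 4 genes holding 2 copies marked in all 3 libraries, 1 of 4 holding 1 copy, and 0 of 2 holding none. Base composition moved with the hexamer too. Median GC content was 61.0%, 65.0% and 64.7% in windows with 0, 1 and 2 or more copies, and the median number of CpG dinucleotides 17, 26 and 27. The part of base composition in the marking was not tested. Among members, CpG counts were 21 to 29 with 2 copies, 19 to 27 with 1, and 10 to 23 in the windows with none.

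**Figure D4:**
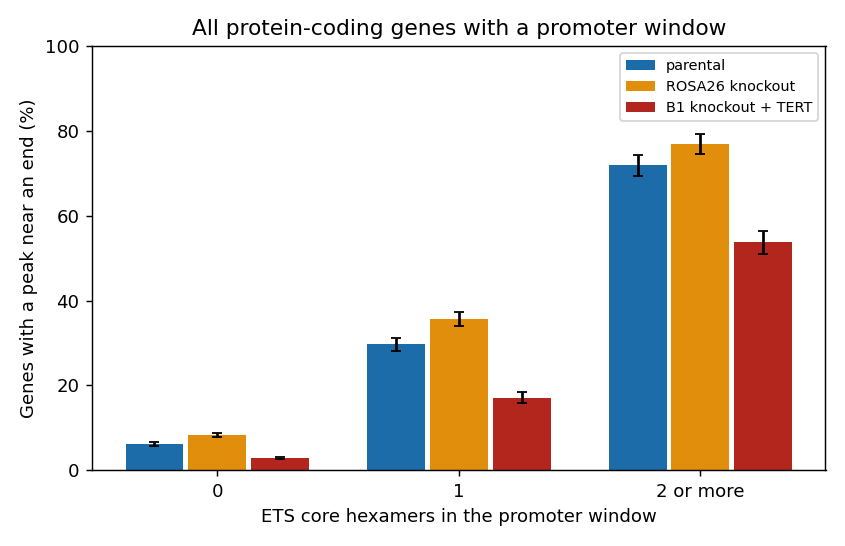
Percentage of all protein-coding genes with a promoter window that had a GABPA peak near an end (vertical axis), by number of ETS core hexamers in the window (horizontal axis) and library; bars carry exact 95% binomial intervals over genes. The parental bars stand at 6.27%, 29.7% and 71.9%.

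Other genes of the pathway were marked as well. Of 59 other genes of mitochondrial translation and RNA processing, 22 had a parental peak (37.3%, interval 25.0 to 50.9), 26 a ROSA26 peak (44.1%, 31.2 to 57.6) and 20 a knockout peak (33.9%, 22.1 to 47.4). These intervals, too, treat a chosen list of genes as random draws. The shares over all genes, also the ones to set beside the counts by role below, were 15.5%, 18.5% and 9.31%. All 22 parental genes were also in the ROSA26 list, and 20 of them had a knockout peak, against 60.4% of control-shared genes overall. Their median parental fold was 11.1, against 13.0 for the marked members and 7.03 for all marked genes. These medians cover only genes that had a peak.

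Termination genes were split as the initiation and elongation genes were. MTRF1L, a release factor, had folds of 11.0, 12.6 and 6.59, and 2 of 5 termination and recycling genes were marked in each library. MRRF, the partner of GFM2 in recycling, was listed in none. Of 6 genes for the start, activation or membrane insertion of translation products, 2, 3 and 2 were marked, with TACO1, an activator of COX1 synthesis, highest at 11.9, 15.7 and 12.0.

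Of 9 genes of RNA end processing and the FASTK family, 3, 3 and 2 were marked. ELAC2, the nuclease that cuts at the other side of transfer RNAs from RNase P, had folds of 13.5, 13.1 and 13.9. TBRG4, a FASTK family protein, had folds of 6.44 and 9.19 in the controls and no knockout peak. Of 8 genes of message stability, polyadenylation and decay, 2 were marked in each library, with SLIRP the stronger of them in the parental list. The poly(A) polymerase gene MTPAP and the degradosome genes PNPT1 and SUPV3L1 were listed in none.

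RNA modification and ribosome assembly were the largest roles and so gave the larger counts. Their parental shares were 37.5% and 46.7%, against 25% to 40% in the other roles, each share resting on few genes. Of 16 genes of transfer and ribosomal RNA modification, 6, 9 and 5 were marked. The 3 in the ROSA26 list alone had weak peaks, with folds of 1.99 to 3.53 against that list's median of 6.02. Of all protein-coding genes, 3.12% were marked in that list alone. TRMU, which thiolates transfer RNAs, had folds of 15.3, 16.8 and 14.8. NSUN3, a methyltransferase of the methionine transfer RNA, had folds of 3.68 and 4.71 in the controls and no knockout peak. Of 15 assembly genes, the same number, 7, was marked in each library, and MTERF4, a protein that guides ribosomal RNA methylation, had folds of 15.9, 18.3 and 12.4. TBRG4 and NSUN3 were the 2 pathway genes that, like PRORP among the members, were marked in both controls alone. Of the 52 other genes with a promoter window, 16 of 19 with 2 or more hexamers, 4 of 11 with 1 and 1 of 22 with none had a parental peak.

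**Figure D5:**
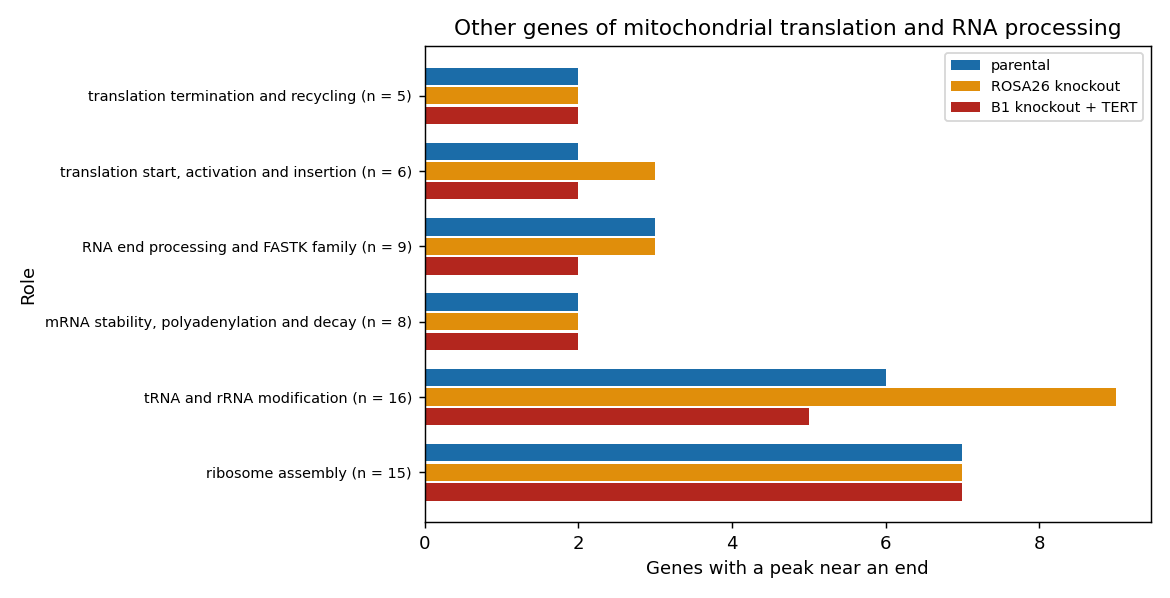
Number of genes with a GABPA peak near an end (horizontal axis) among the 59 other genes of the pathway, by role (vertical axis, with the number of genes) and library. RNA modification, the largest role, stood at 6, 9 and 5 of 16, its 3 genes in the ROSA26 list alone having weak peaks (folds 1.99 to 3.53). Ribosome assembly stood at 7 of 15 in each.

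Genes with a pattern close to that of the strongest and the weakest parental member were sought by the distance between percentile ranks of fold in the 3 lists. TUFM stood at percentiles 97.5, 95.6 and 75.7 of the lists. The nearest genes were HNRNPA1L2 (folds 16.6, 15.7 and 8.61, distance 1.19 percentile points) and FBXL6 (15.5, 16.9 and 8.60, distance 1.71). PRORP stood at 17.6 and 39.0 in the controls and, with no knockout peak, at 0. The nearest genes were FBXW7 (folds 3.77 and 4.80, distance 0.481) and NEK9 (3.79 and 4.77, distance 1.00), both without a knockout peak. The likeness is over 3 libraries and describes peak strength only.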

How the data were processed

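GABPA ChIP-seq peak lists of 3 libraries were used, 1 per condition, and the 3 input samples, 6 samples in all, were not analysed here on their own. Bowtie2, SAMtools and MACS2 were used on hg38, per the submitters' processing notes, and their versions, thresholds and any use of the input were not given in the sources used here. Deposited lists give each peak's fold (a ratio to local background), −log10 p and −log10 q, and a score equal to 10 times −log10 q with decimals dropped. Peaks were called by the authors per library. Reads and background at each summit were recovered by inverting the MACS2 formula for fold and p (tolerance 0.01, all peaks solved, tested on simulated lists). Fold is (pileup + 1)/(background + 1) after reads and background, printed here in the library's own reads, are multiplied by a scale per library (0.860 parental, 1 ROSA26, 0.924 knockout). Gene spans and promoter windows are from RefSeq on GRCh38.p14, which shares its coordinates with hg38. A summit counts for every gene with an end within 1 kb, whichever end that is. Values were computed with Python 3.11.15, numpy 2.4.6, pandas 2.3.3 and scipy 1.17.1. The members and gene lists were chosen with earlier results of these data known. All members were named; of other pathway genes, the highest parental fold per role among those in all 3 lists and among those in both controls only, plus partners of members; and the 2 genes nearest to the strongest and weakest parental member. MRRF, MTPAP, PNPT1 and SUPV3L1 were named after their values were seen. Alternatives were other distances, summits within genes, nearest gene only, a stricter q, equal list lengths, peak overlap and other motifs.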

Additional observations from a re-analysis of the deposited data

How the results depend on the processing

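Counts of marked members stayed within 1.5 times their value under the other distances, gene assignments, thresholds and overlaps tried, with 1 exception. With lists of equal length (the top 1660 peaks by −log10 p), 4 members were marked in ROSA26 in place of 7, since GFM1, PRORP and HSD17B10 fell outside. At that length 5 members were marked in the parental and 5 in the knockout library, against 9.49%, 9.46% and 9.31% of all genes in the parental, ROSA26 and knockout lists. All 4 control-shared members were then in the knockout list, as were 89.0% of all such genes. A summit distance of 500 bp removed PRORP, and a −log10 q of at least 10 removed HSD17B10. Member promoters holding CCGGAAGT numbered 4, those holding CGGAAG 8, and those holding GGAAG, an alternative added after seeing the data, 10. No paired analysis was possible because each condition has 1 ChIP library. For the same reason no library could be left out. Summit reads near 51 (HSD17B10) and 61 (PRORP) carry wide counting intervals. The absence of such weak peaks in the knockout library, where summit reads and background were lower, was not tested against depth.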

Other observations

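Some peaks lay farther than 1 kb from the members' ends. Beyond the far end of MTIF2, at 4.41 kb in the parental library, a peak had folds of 5.92, 7.38 and 4.10 (parental, ROSA26, B1 knockout). The nearest gene end to its summit was that of RPS27A, a cytosolic ribosomal protein gene, in the controls and that of CLHC1 in the knockout. Beyond the far end of PRORP, at 14.8 kb, a peak had folds of 12.5, 16.4 and 10.4. It lay 13.8 kb from the nearest gene end, which was that of PSMA6, a proteasome subunit gene. That peak was listed in all 3 libraries, unlike the one at the PRORP start.

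Among the other pathway genes, CDK5RAP1, which modifies mitochondrial transfer RNAs, had folds of 14.4, 16.7 and 17.2 and ranked 189, 175 and 33 of the 1850 genes marked in all 3 libraries. It is named after its values were seen. PDE12, which removes poly(A) tails from mitochondrial messages, ranked 1408, 1411 and 1847 of the same genes, with folds of 7.10, 8.26 and 2.53, and is likewise named after its values were seen.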
